A study of Mus musculus with 16 samples.

Results

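Primary podocytes grown out of the glomeruli of untreated Tsc2flox/flox mice were measured on 4 arrays of the 16 in the series. These 4 arrays are those labelled as untreated Tsc2flox/flox, and no measured value was used to choose them. Earlier results of these data were known when this choice and the gene lists were made. The mice were male, of the Jcl:ICR strain and 4 weeks old, carried floxed alleles of Tsc2 without a Cre transgene, and were the controls of mice that lose Tsc2 in podocytes. The glomeruli were isolated with magnetic beads and kept on type I collagen in RPMI medium with 10% fetal bovine serum, and the cells that grew out, which the study also stained for WT1, were used as podocytes. The labels do not say whether the 4 samples, called cultures 1 to 4 here, came from separate mice, so the spread between them may be partly technical. Since 1 group was described, no test between groups was made, and each value is given as a level with its SD.

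Podocytes are the epithelial cells that wrap the outside of the glomerular capillary. Their foot processes interlock and are bridged by the slit diaphragm, a junction of nephrin and partner proteins that forms the last layer of the filter. An actin cytoskeleton and integrins hold the foot processes to a basement membrane of laminin and type IV collagen, and transcription factors such as WT1, LMX1B and TCF21 keep the cell in its mature state. In culture, podocytes are known to spread and to divide again. A glomerulus also holds endothelial, mesangial, parietal epithelial and resident macrophage cells, any of which can leave an explant along with the podocytes.

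Each value below is a level, the log2 of the spot intensity minus the log2 of the 75th percentile of the array, so that 0 is a probe as bright as that percentile and 1 unit is a doubling of signal. A probe counted as above background where the scanner software marked it well above background on all 4 arrays. This held for 24691 of 56605 probes (43.6%) and, taking the probe of each gene that was above background on most arrays and then the brightest, for 13150 of 22907 genes (57.4%). A further 2223 genes passed on 1 to 3 arrays and 7534 (32.9%) on none. The lowest level that the software marked lay between -5.26 and -4.45 on the 4 arrays, and anything dimmer has only an upper bound. Probes differ in how well they bind, so an order of levels is an order of signals, not of transcript numbers. Among 4099 genes with several probes, all above background, the probes of one gene differed by a median of 2.53 log2 units.

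The 4 arrays correlated at r between 0.986 and 0.991 over the probes above background. The median SD between cultures was 0.16 over the 13150 genes, and 8604 of them (65.4%) stayed within 0.5 log2 units on all 4 arrays. For 288 probes with 10 spots each the single spots of one array had a median SD of 0.0535. The averages of those spots had a median SD of 0.115 between the cultures. These are unlike measures, since an average of 10 spots varies less than a single spot. Of the 13150 genes, 198 had an SD over 1 (1.51%). Cultures 1 and 3 stood apart in these genes. Culture 1 had the highest level of 115 of the 198 and culture 3 had the lowest of 117.

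**Figure D1:**
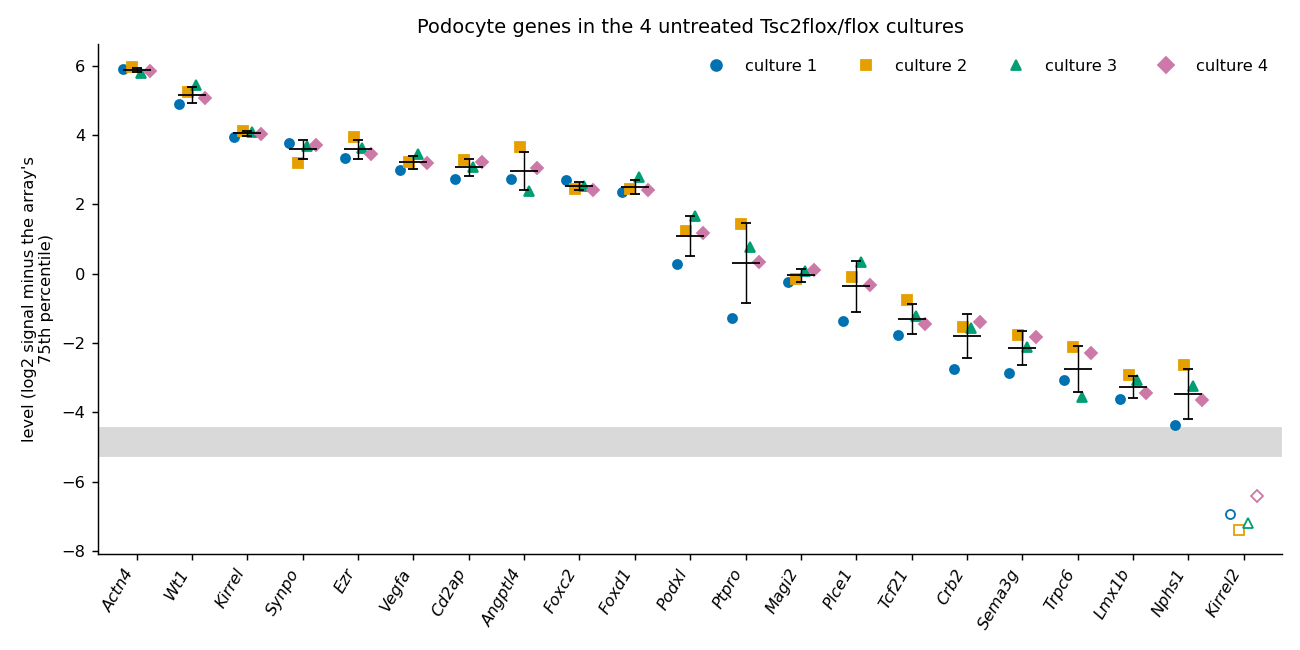
Level (log2 signal minus the 75th percentile of the array, vertical axis) of 21 podocyte genes in the 4 untreated Tsc2flox/flox cultures. Each symbol is 1 culture, filled where the probe was well above background and open where it was not, the bars are the mean ± SD, and the grey band spans the lowest levels marked as above background on the 4 arrays. Wt1 lay between 4.89 and 5.44, Nphs1 between -4.36 and -2.64 just over the band, and the open symbols of Kirrel2 lie beneath it.

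The 4 markers taken for the cell type, Wt1, Synpo, Nphs1 and Podxl, were above background in every culture, at very different signals. Wt1, the zinc finger transcription factor that marks podocyte nuclei, had levels of 4.89, 5.24, 5.44 and 5.08 in cultures 1 to 4 (5.16 ± 0.23, SD, n = 4), at the 96.9th percentile of all genes. Synpo, the actin-associated protein synaptopodin, had 3.77, 3.18, 3.69 and 3.72 (3.59 ± 0.27), lower in culture 2 than in the other three. Both were bright in all cultures. Podxl, the sialoprotein podocalyxin of the apical membrane, had 0.28, 1.23, 1.66 and 1.18 (1.09 ± 0.58). Nphs1, which encodes nephrin, had -4.36, -2.64, -3.25 and -3.63 (-3.47 ± 0.72), close to the lowest level that could be measured and at the 45.3rd percentile. Its second probe passed on 2 arrays, with a mean of -4.25. The nephrin message was thus marked as detected at a signal near the limit. In cultures 1 and 4 its brighter probe lay under the 99th percentile of the negative control spots, a stricter limit. Culture 1 had the lowest value for Podxl and for both Nphs1 probes.

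The 250 bases before the start that RefSeq's promoter table gives for Nphs1 are shown for that dim gene (chr7:30459808-30460057, GRCm38.p6, plus strand, 50.8% G or C). For Nphs1 and, below, Emcn that start lies inside the gene as RefSeq's gene table bounds it, so part or all of the window is past the outermost start. Capitals in this and in the later promoters mark AGGAAG, the core letters bound by ETS factors, on either strand.
Nphs1 promoter: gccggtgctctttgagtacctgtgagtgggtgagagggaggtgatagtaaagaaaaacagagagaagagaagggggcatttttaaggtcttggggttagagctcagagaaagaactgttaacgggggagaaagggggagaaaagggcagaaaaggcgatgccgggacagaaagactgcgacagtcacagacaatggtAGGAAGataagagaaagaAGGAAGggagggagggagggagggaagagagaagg
The letters AGGAAG occur in 29.6% of the 32536 different promoters of the table. Those of the TATA box (TATAAA, in 12.3% of promoters), the GC box (GGGCGG, in 33%), AP-1 (TGANTCA, in 6.73%) and forkhead factors (TGTTTAC, in 3.17%) were looked for on both strands too, and none of these was in this window.

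Of 35 genes of the slit diaphragm and the membrane around it, 32 were above background (91.4%, against 57.4% of all genes), and the median level of all 35 was 0.66, against -2.40 for all genes. Kirrel2, a nephrin relative, Trpc5, a calcium channel, and Tmem63c were not above background on any array. The brightest were Fat1, a giant protocadherin (5.50 ± 0.16), Gprc5a, an orphan receptor (5.18 ± 0.24), and Prkci, the atypical protein kinase C of the polarity complex (5.11 ± 0.24). The second Fat1 probe was not above background on any array. Kirrel, which encodes the nephrin partner NEPH1, had 4.05 ± 0.07 and hardly varied, although its second probe had -3.69. Cd2ap, the adaptor that ties nephrin to actin, had 3.07 ± 0.25, and Tjp1, the ZO-1 scaffold, 2.74 ± 0.32.

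Ptpro, the podocyte receptor phosphatase GLEPP1, had -1.26, 1.42, 0.77 and 0.33 (0.31 ± 1.14), a 6.43-fold range of signal. Rhpn1, which encodes rhophilin, ranged from -3.30 in culture 1 to -0.78 in culture 2.

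Many slit diaphragm genes were lowest in culture 1. Culture 1 was the lowest for 22 of the 32 genes above background, against 32.5% of all genes above background. The median deviation from the mean of each gene was -0.35 in culture 1 and 0.14, 0.11 and 0.05 in cultures 2, 3 and 4. Plce1, the phospholipase C epsilon mutated in a childhood nephrotic syndrome, had -1.37 there against -0.10, 0.33 and -0.32, and Crb2, a polarity protein, -2.75 against -1.53, -1.57 and -1.38. Without culture 1 the median SD of these 32 genes was 0.17 in place of 0.26, and none had an SD over 1 in place of 2. Not all members went this way. Pard3, Magi1, Fyn and Sh3kbp1 were highest in culture 1, by at most 0.52 over their lowest culture.

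Trpc6, the calcium channel of the foot process, lay near the limit (-2.75 ± 0.67), with its other probes passing on 3 arrays each. Magi2, a scaffold of the slit, had -0.05 ± 0.18 by one probe, and its second probe was not above background on any array. Thsd7a (1.16 ± 0.43) and Pla2r1 (-3.58 ± 0.28), the autoantigens of membranous nephropathy, were both detected, Pla2r1 near the limit.

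Of 38 genes of the podocyte cytoskeleton and its actin regulators, 36 were above background (94.7%, against 57.4% of all genes). The median level of the 38 was 4.63. Zyx, a focal adhesion protein (6.97 ± 0.03), Arhgdia, an inhibitor of small GTPases (6.79 ± 0.06), Myh9, the non-muscle myosin heavy chain (6.75 ± 0.08), and Palld, which encodes palladin (6.69 ± 0.06), were the brightest. Actn4, the alpha-actinin mutated in familial glomerulosclerosis, had 5.89, 5.96, 5.80 and 5.85. This group was even between cultures, with a median SD of 0.12 and none over 1. Inf2, a formin (5.14 ± 0.18), Ezr, which encodes ezrin (3.59 ± 0.27), Myo1e, an unconventional myosin (2.87 ± 0.12), and Arhgap24 (2.56 ± 0.17) were all detected. Ptk2, the focal adhesion kinase, was dim at -0.35 ± 0.26 and Avil, which encodes advillin, dimmer at -2.77 ± 0.20. Synpo2 passed on 2 arrays and Kank4 on 1. The other Synpo probes had -0.95 and -2.95, and like the bright one they passed on all 4 arrays.

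Of 23 transcription factors of podocytes, 20 were above background (87.0%, against 57.4% of all genes), with a median of 1.95. After Wt1 came Klf6, a stress-response zinc finger factor (5.13 ± 0.17), and the Hippo pathway effectors Wwtr1 (4.88 ± 0.18), Yap1 (4.53 ± 0.10) and Tead1 (4.08 ± 0.04). The forkhead factors Foxc1 (3.01 ± 0.12), Foxc2 (2.53 ± 0.12) and Foxd1 (2.50 ± 0.20) were within 0.5 log2 units across the cultures. Dimmer was Tcf21, a bHLH factor of glomerular development (-1.77, -0.75, -1.23 and -1.46). Lmx1b, mutated in nail-patella syndrome, had -3.62, -2.92, -3.06 and -3.43, and its second probe was not above background on any array. The brighter Lmx1b probe lay under the 99th percentile of the negative control spots in cultures 1 and 4. Klf15 passed on 3 arrays, and Zhx2 and Pou3f3 on 2. The defining factors thus spanned from one of the brighter genes of the array (Wt1) to the limit (Lmx1b), and no factor above background had an SD over 0.43.

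Of 37 secreted and signalling genes of podocytes, 34 were above background (91.9%, against 57.4% of all genes). Igfbp7, an insulin-like growth factor binding protein, had 7.25 ± 0.05. Vegfa, the podocyte signal that maintains the capillary endothelium, had 2.98, 3.21, 3.45 and 3.20 (3.21 ± 0.19), and Angptl4, a secreted inhibitor of lipoprotein lipase, 2.73, 3.66, 2.38 and 3.06. Angpt1, the ligand of the endothelial receptor TIE2, was dim (-0.29 ± 0.52), as was Sema3g (-2.14 ± 0.50). In 4 members the SD was over 1 (11.8%, against 1.51% of all genes above background). Igfbp2 had 5.19 in culture 1 against 1.45, 1.26 and 2.70, and Igfbp3 1.37 in culture 3 against 4.20, 3.45 and 3.72. Fgfbp1 had 0.34 and -0.34 in cultures 2 and 4 against -3.00 and -2.32 in cultures 1 and 3. Tdrd5 had -3.97 in culture 1 against -1.48, -1.42 and -2.23. Bmp7, a growth factor of kidney development, was lowest in culture 1 (-0.12 against 2.20, 1.64 and 1.18). Spock2 was not above background on any array. All 29 other genes of inherited nephrotic syndrome, among them Coq2 (2.66 ± 0.17) and Coq6 (2.35 ± 0.09) of coenzyme Q synthesis and the nucleoporin Nup93 (3.79 ± 0.13), were above background.

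**Figure D2:**
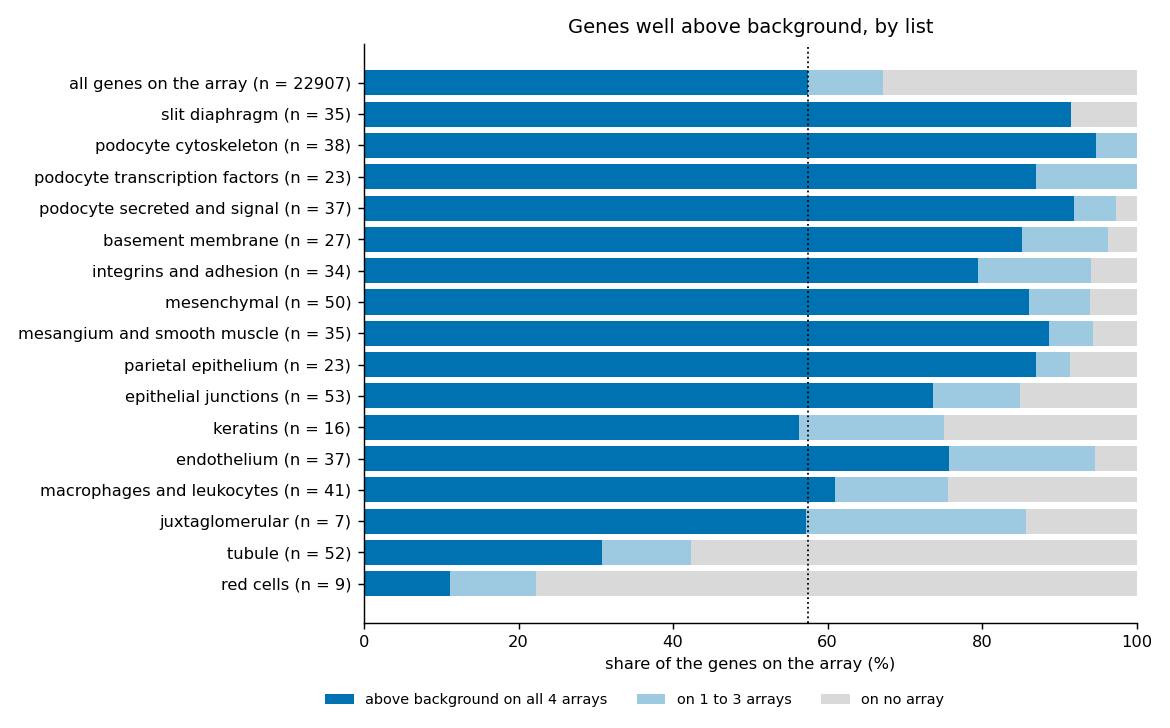
Share of the genes of each list, among those on the array (horizontal axis, %), that were well above background on all 4 arrays (dark blue), on 1 to 3 (light blue) or on none (grey), with the number of genes behind each name. The dotted line is the share over all genes, 57.4%, and the tubule list (16 of 52) and the red cell list (1 of 9) lie far to its left.

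Of 27 basement membrane genes 23 were above background (85.2%, against 57.4% of all genes), and of the chains of the mature glomerular basement membrane each was detected. Lama5 had 4.35 ± 0.24 and Lamb2 1.31 ± 0.26, the subunits that with laminin gamma 1 (Lamc1, 3.46 ± 0.15) make laminin-521. Among the type IV collagens, Col4a1 (5.35 ± 0.21) and Col4a2 (4.30 ± 0.16) of the widespread network had the higher signals. The chains of the network that podocytes make, mutated in Alport syndrome, had 2.43 ± 0.40 (Col4a5), 1.00 ± 0.29 (Col4a4) and -0.29 ± 1.00 (Col4a3). Col4a3 had 0.39, -0.24, 0.42 and -1.72, lowest in culture 4, while Col4a4, its neighbour in the genome, was lowest in culture 2 (0.57 against 1.14, 1.13 and 1.17). Sparc, a collagen-binding protein of remodelled matrix, was the brightest member at 7.86 ± 0.12. Lama4, a laminin chain of vascular basement membranes, had -1.53, -2.20, -4.70 and -2.72 and was lowest in culture 3. Frem2 was not above background on any array.

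Of 34 integrins and adhesion genes 27 were above background (79.4%, against 57.4% of all genes). Itgb1, the common beta subunit, had 7.34 ± 0.13, and Itga3, its podocyte partner in binding laminin, 3.21 ± 0.28. Itgb5 (5.68 ± 0.15), Itga11, a collagen receptor (5.44 ± 0.40), and Itgav (5.04 ± 0.17) were also detected. Plaur, the urokinase receptor, had 4.62 ± 0.16. Of the leukocyte integrins, Itgae and Itgad were not above background on any array, while Itgam, which encodes CD11b, was (2.56 ± 0.23).

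Epithelial junction genes were detected unevenly. Of 53 such genes 39 were above background on all arrays (73.6%, against 57.4% of all genes), 6 on some and 8 on none. The median of the 53 was -1.85, against -2.40 for all genes. Pkp1, a plakophilin of desmosomes (5.63 ± 0.24), Cdh2, which encodes N-cadherin (4.90 ± 0.18), F11r, a tight junction adhesion protein (4.11 ± 0.16), and Pkp2 (3.79 ± 0.08) led the list. Cdh1, which encodes E-cadherin, had -1.10, 0.84, -1.33 and 1.04 (-0.14 ± 1.25), and Epcam, an adhesion protein of simple epithelia, had -2.54, -0.87, -2.40 and -1.14. Ocln, the tight junction protein occludin, passed in cultures 2, 3 and 4 but not in culture 1. E-cadherin thus varied between cultures far more than N-cadherin. The claudin genes Cldn1 (2.75 ± 0.41), Cldn7 (1.71 ± 0.88) and Cldn3 (1.40 ± 0.98) were detected, while Cldn8, Cldn10, Cldn11, Cldn14, Cldn16 and Cldn18 were not above background on any array, nor were Dsc2 and Ovol1.

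Of 16 keratins 9 were above background (56.25%), near the 57.4% of all genes. Krt18 had 4.81, 6.24, 4.91 and 6.24 (5.55 ± 0.80) and its partner Krt8 4.22, 5.76, 4.50 and 5.89 (5.09 ± 0.86), the pair of simple epithelia. Krt19 had 2.50 ± 0.57, Krt7 1.85 ± 0.94 and Krt20 1.68 ± 0.54. The keratins of stratified epithelia Krt1, Krt4, Krt5 and Krt15 were not above background on any array, and Krt14 passed on 1.

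Cultures 2 and 4 were both above cultures 1 and 3 for 30 of the 39 epithelial junction genes and for 7 of the 9 keratins, against 21.1% of all genes above background. The median deviations of the junction genes in cultures 1 to 4 were -0.32, 0.30, -0.40 and 0.40, and those of the keratins -0.36, 0.52, -0.63 and 0.37. Cdh5, an endothelial gene that is also on the junction list, did not have this order. Cldn3 (0.38, 2.44, 0.77 and 2.01), Rab25, a GTPase of epithelial vesicle transport (-2.82, -0.90, -3.12 and -0.98), and Grhl2, a transcription factor of epithelial junction genes (-3.38, -1.09, -2.55 and -1.42), showed it over 1 log2 unit. Krt7, a keratin of simple and ductal epithelia, did so too, at 0.97, 2.59, 1.10 and 2.72. The second probe of Rab25 passed on 1 array and that of Grhl2 on none. Over all 4 cultures 6 of the junction genes had an SD over 1 (15.4%, against 1.51% of all genes above background). Cdh5, with the largest SD of the list (1.83), is among these 6. Leaving out any single culture left between 5 and 7.

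Krt8 and Krt18, neighbours on chromosome 15 whose levels moved together, have the following sequences before their starts. That of Krt8 (chr15:102004343-102004592, GRCm38.p6, minus strand) is 58% G or C and that of Krt18 (chr15:102027966-102028215, plus strand) 60.4%, against a median of 52.4% over the promoters of the table.
Krt8 promoter: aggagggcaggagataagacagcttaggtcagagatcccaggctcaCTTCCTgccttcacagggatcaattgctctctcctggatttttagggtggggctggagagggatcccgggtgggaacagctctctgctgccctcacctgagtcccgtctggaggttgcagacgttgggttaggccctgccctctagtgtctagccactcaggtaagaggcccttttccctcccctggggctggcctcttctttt
Krt18 promoter: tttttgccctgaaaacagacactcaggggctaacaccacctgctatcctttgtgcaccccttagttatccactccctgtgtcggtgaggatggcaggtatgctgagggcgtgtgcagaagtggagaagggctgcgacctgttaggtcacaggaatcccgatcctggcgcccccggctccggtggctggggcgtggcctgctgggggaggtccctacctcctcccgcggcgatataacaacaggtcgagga
AGGAAG was found once in the Krt8 window, on the opposite strand, and not in that of Krt18, and none of the other motifs was in either.

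Mesenchymal genes had brighter signals. Of 50 such genes 43 were above background (86.0%, against 57.4% of all genes). The median was 2.29 over the 50 and 3.92 over the 43, against 1.03 over all genes above background. Tagln, an actin-binding protein of contractile cells (8.46, 8.25, 8.16 and 8.24), Ccn2, the connective tissue growth factor (7.73 ± 0.06), Timp1, an inhibitor of matrix proteases (7.60 ± 0.12), and Fn1, which encodes fibronectin (7.13 ± 0.11), were among the brightest genes of the array. Vim, the intermediate filament of podocytes and mesenchyme, had 6.37, 6.54, 6.31 and 6.40 (6.40 ± 0.10), and S100a4 7.03, 6.82, 6.36 and 6.57. Col1a2 had 5.59, 4.65, 5.01 and 5.04 and Col1a1 4.20, 4.40, 5.31 and 4.29, so the chains of type I collagen were highest in different cultures. Both Col1a1 probes placed culture 3 highest. Other fibroblast genes were dim or not detected. Col3a1 had -1.13 ± 0.30, Dcn, which encodes decorin, -1.05 ± 0.29, and Pdgfra, a receptor of interstitial fibroblasts, -3.16 ± 0.38, while Lum, Thbs2 and Col6a2 were not above background on any array. Of the factors that repress E-cadherin, Snai2 (2.57 ± 0.20), Zeb2 (2.27 ± 0.14), Zeb1 (-0.15 ± 0.05) and Snai1 (-1.42 ± 0.37) were above background, and Twist1 passed on 1 array.

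Of 35 genes of mesangial and smooth muscle cells 31 were above background (88.6%, against 57.4% of all genes), with a median of -1.04 over this list. The contractile genes on it were bright, Acta2, the smooth muscle actin (8.18, 8.02, 8.05 and 7.97), Cnn1, which encodes calponin (6.23 ± 0.51), and Smtn, which encodes smoothelin (5.22 ± 0.16). Markers that set mesangial cells apart were lower. Pdgfrb, the receptor that recruits mesangial cells, had 2.05, 2.04, 1.95 and 2.47, Gata3, a transcription factor of the mesangium, 2.27, 1.85, 1.24 and 2.62, and Itga8, the mesangial integrin, -1.99, -1.48, -1.90 and -0.43. Each of these was highest in culture 4. Des, which encodes desmin, had 1.46 ± 0.30, and Myh11, the smooth muscle myosin, -2.67 ± 0.97. Kcnj8 and Abcc9, the channel subunits of pericytes, were not above background on any array. Among 7 juxtaglomerular genes 4 were above background (57.1%, the share of all genes being 57.4%), and Ren1, which encodes renin, passed in culture 3 alone. Podocytes in culture are themselves known to make contractile proteins, and an array of whole cultures cannot tell which cells a signal came from.

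Of 23 genes of the parietal epithelium 20 were above background (87.0%, against 57.4% of all genes). Cldn1, the claudin of parietal cells, had 2.20, 3.03, 2.67 and 3.10, Scin, an actin-severing protein, 1.76, 2.44, 1.26 and 2.79, and Pax8, a transcription factor of the renal epithelium, 1.41, 1.35, 1.19 and 1.32. Cldn1 and Scin were higher in cultures 2 and 4 than in 1 and 3, and Pax8 was even. The second Pax8 probe passed on 3 arrays at a mean of -4.46. Akap12, a kinase anchor (7.22 ± 0.11), Ncam1, a neural adhesion protein also found on parietal cells (4.26 ± 0.11), and Aldh1a2, which makes retinoic acid (3.63 ± 0.28), were bright and steady. Pax2 was dim (-1.67 ± 0.28) with 2 further probes passing on 1 array and on none. Lbp and Wfdc18 were not above background on any array.

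**Figure D3:**
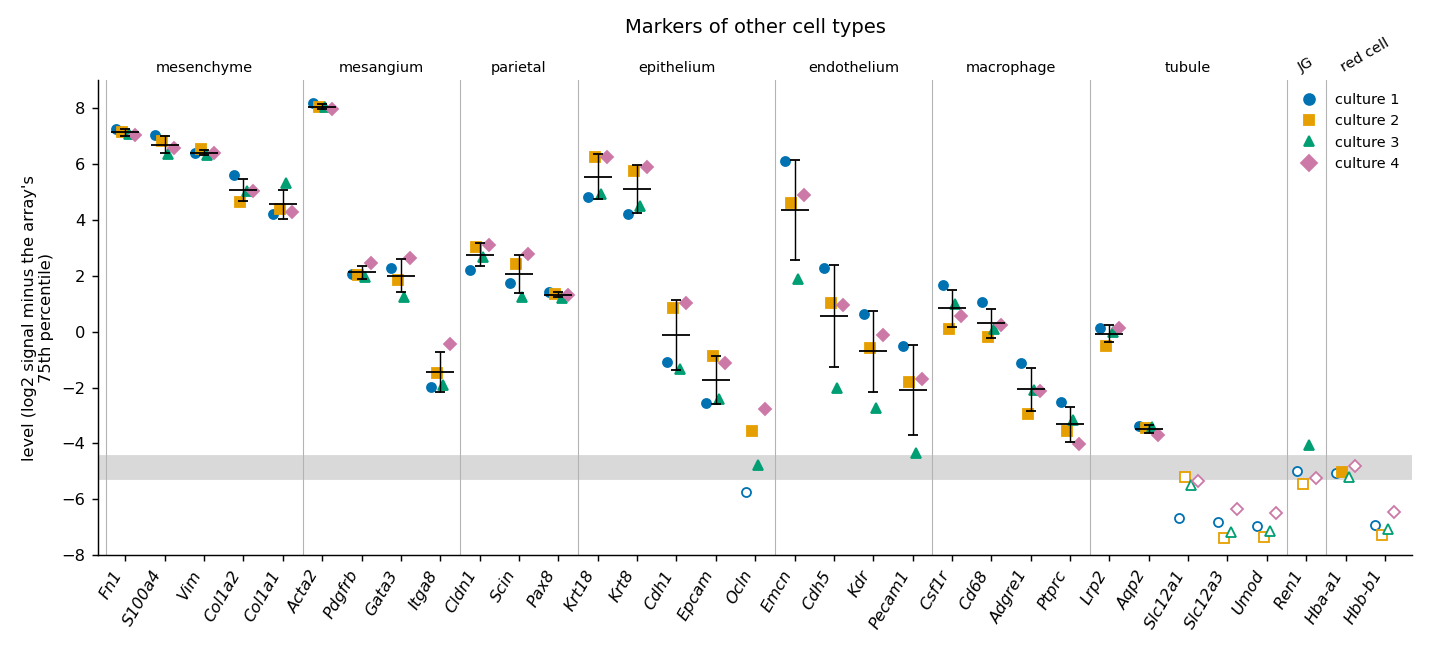
Level (log2 signal minus the 75th percentile of the array, vertical axis) of markers of cell types other than podocytes in the 4 cultures. Symbols stand for single cultures, filled where well above background and open where not, bars for the mean ± SD of genes above background on all 4 arrays, and the grey band for the lowest levels marked as above background. Acta2 and Vim differed little between cultures, Emcn ran from 1.87 in culture 3 to 6.10 in culture 1, and Umod, Slc12a1 and Slc12a3 lay under or at the band with open symbols.

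Endothelial genes differed most between the cultures among the lists described. Of 37 such genes 28 were above background on all arrays (75.7%, against 57.4% of all genes) and 7 on some. The other 2, Vwf, which encodes von Willebrand factor, and Lyve1, a lymphatic marker, were above background on none. Emcn, the sialomucin endomucin of capillaries, had 6.10, 4.60, 1.87 and 4.90, an 18.7-fold range. Cdh5, which encodes the endothelial cadherin, had 2.28, 1.01, -2.02 and 0.96 (19.8-fold), and Kdr, the receptor of VEGF, 0.64, -0.60, -2.75 and -0.12 (10.5-fold). In each, culture 1 was highest, culture 3 lowest, and cultures 2 and 4 lay between.

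Pecam1, the endothelial adhesion protein CD31, had -0.50, -1.79, -4.33 and -1.69. Egfl7, a matrix protein of vessels, had 4.89, 3.79, 1.14 and 3.59, and Nos3, the endothelial nitric oxide synthase, 2.87, 1.37, -1.41 and 1.36. The transcription factors Sox17 (-0.37, -2.06, -4.61 and -1.66), Sox18 (-0.39, -2.03, -4.81 and -2.31) and Erg (-0.72, -1.81, -4.70 and -2.27) fell close to the limit in culture 3. These factors and Pecam1 lay there under the 99th percentile of the negative control spots. Tie1 and Tek, the receptors of the angiopoietin system, passed in 3 cultures.

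The order with culture 1 highest and culture 3 lowest held for 22 of the 28 genes above background, against 9.13% of all genes above background. The median deviations in cultures 1 to 4 were 1.60, 0.25, -2.19 and 0.21. Of the 28 genes, 20 had an SD over 1 (71.4%, against 1.51% of all genes above background), and the median SD was 1.59. Without culture 3 the number was 3 and the median SD 0.76, and without culture 1 they were 19 and 1.45. Nrp1 (5.41 ± 0.30) and Nrp2 (5.21 ± 0.21), semaphorin and VEGF co-receptors that other cell types also make, were bright in all cultures and outside this order, as were Prox1 (-3.71 ± 0.03) and Flt4 (-3.82 ± 0.52) of lymphatic vessels near the limit. The log2 of the summed linear signals of the 28 genes was 8.02, 7.24, 6.68 and 7.35, while that of the 32 slit diaphragm genes was 7.62, 8.03, 8.02 and 7.95. The endothelial sums include Nrp1 and Nrp2, which had 5.63 and 5.27 in culture 3 and make up most of the sum there. These sums thus understate the fall of the other endothelial members from culture 1 to culture 3. Fewer endothelial cells and less RNA of these genes in each cell cannot be told apart in whole cultures. Culture 1 was thus highest in endothelial and, below, in macrophage signal and lowest in slit diaphragm signal, and the part of those cells in the slit diaphragm values was not tested. Culture 3, lowest in endothelial signal, and culture 2 had like slit diaphragm sums.

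The 250 bases before the promoter table's start of Emcn are shown since it had the brightest signal in this order (chr3:137340828-137341077, GRCm38.p6, plus strand, 40.8% G or C). AGGAAG is present on each strand once, and none of the other motifs was found.
Emcn promoter: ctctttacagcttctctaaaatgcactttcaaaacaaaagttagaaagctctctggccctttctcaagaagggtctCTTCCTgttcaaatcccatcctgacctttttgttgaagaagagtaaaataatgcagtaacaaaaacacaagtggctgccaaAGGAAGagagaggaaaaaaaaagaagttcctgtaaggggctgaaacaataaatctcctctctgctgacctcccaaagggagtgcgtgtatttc

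**Figure D4:**
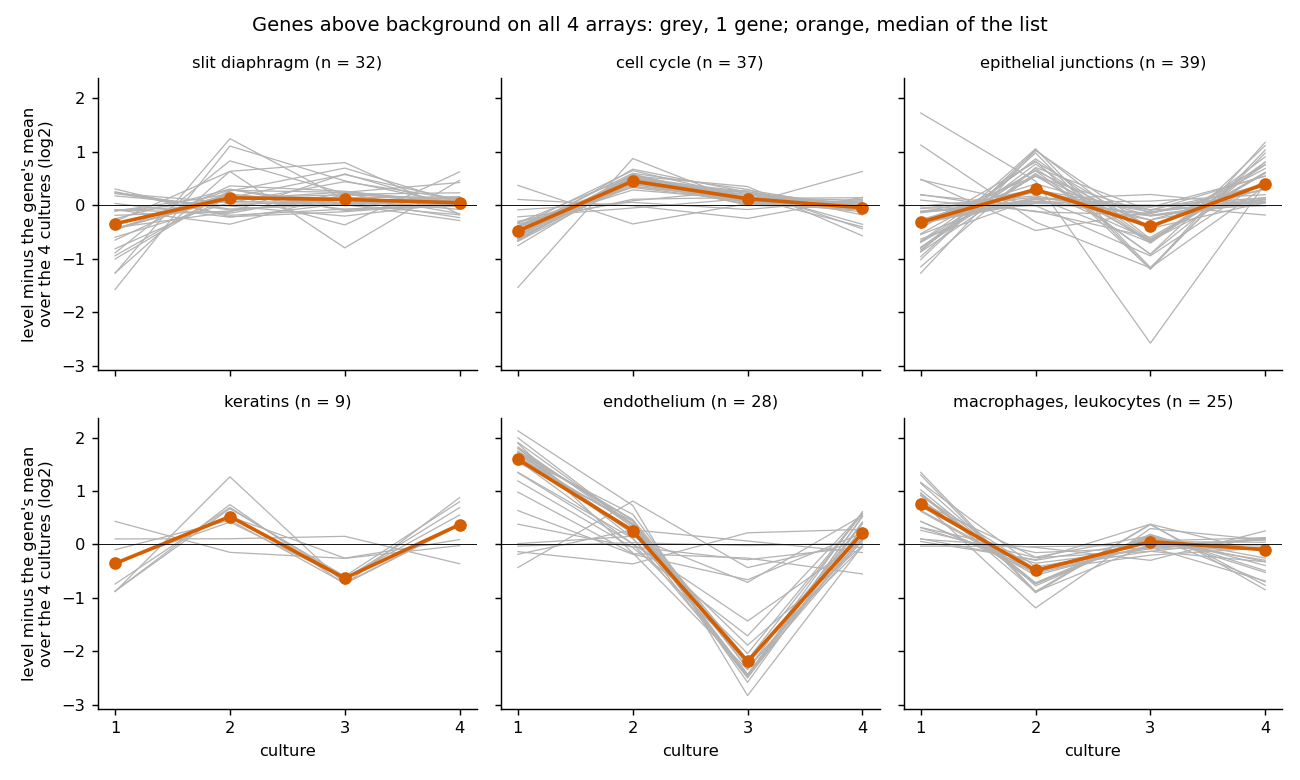
Level of each gene minus its own mean over the 4 cultures (vertical axis, log2) in cultures 1 to 4 (horizontal axis), for genes above background on all 4 arrays. Each grey line is 1 gene and the orange line the median of its list. The lines only join the values of a gene, since the cultures have no order. Endothelial genes run from a median of 1.60 in culture 1 to -2.19 in culture 3, epithelial junction genes and keratins peak in cultures 2 and 4, and slit diaphragm and cell cycle genes are lowest in culture 1.

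Macrophage and leukocyte genes had a median level near that of all genes, and most of those above background were highest in culture 1. Of 41 such genes on the array 25 were above background (61.0%, against 57.4% of all genes), 6 passed on some arrays and 10 on none. The median of the 41 was -2.32, against -2.40 for all genes. The brightest signal was that of Itgam (2.83, 2.32, 2.43 and 2.68), whose second probe was not above background on any array. Lyz1, a lysozyme, had 2.75, 0.55, 1.82 and 0.68. Both were highest in culture 1. Csf1r, the receptor for macrophage colony-stimulating factor, had 1.68, 0.09, 0.98 and 0.58, Cd68, a lysosomal protein, 1.04, -0.20, 0.09 and 0.23, and Adgre1, which encodes F4/80, -1.11, -2.96, -2.07 and -2.14. Ptprc, the leukocyte common antigen CD45, lay near the limit at -2.53, -3.55, -3.15 and -4.01. The second probes of Adgre1 and Ptprc were not above background on any array. Culture 1 was highest for 21 of the 25 genes, against 26.8% of all genes above background, and the median deviations were 0.75, -0.49, 0.05 and -0.10. The order of the remaining cultures was not that of the endothelial genes, since culture 2 was lowest here. The summed signals were 5.20, 4.02, 4.55 and 4.36 on the log2 scale. Without culture 1 the median SD was 0.32 in place of 0.53, and none had an SD over 1 in place of 2. Siglec1, Cd163, Ccr2, the neutrophil gene S100a9, the T cell genes Cd3g and Cd8a, the natural killer gene Nkg7 and the B cell genes Cd79a and Ms4a1 were not above background on any array. Other T cell genes were detected by 1 of their 2 probes, Cd3e at -1.26 ± 0.24 and Cd4, which macrophages can also make, at -0.83 ± 0.21, and their second probes were not above background on any array.

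Most tubule genes were not detected. Of 52 on the array 16 were above background (30.8%, against 57.4% of all genes) and 30 were on no array. Umod, the uromodulin of the thick ascending limb, Slc12a1 and Slc12a3, the sodium-chloride transporters of the loop and distal tubule, Hnf4a and Slc34a1 of the proximal tubule, and Calb1, Foxi1 and Slc26a4 of the distal nephron were not above background on any array. Lrp2, the endocytic receptor megalin, was detected at 0.14, -0.53, -0.02 and 0.12, with its co-receptor Cubn at -1.12, -0.79, -0.50 and -0.78. Aqp2, the water channel of the collecting duct, lay near the limit (-3.48 ± 0.15). The brightest on the list, Ass1, an enzyme of arginine synthesis (3.21 ± 0.45), Lcn2, an iron-carrier protein of injured epithelium (2.65 ± 0.55), and Cdh16, a kidney cadherin (2.57 ± 0.70), were each highest in culture 4. Havcr1, the injury marker KIM-1, had 0.28, -3.13, -0.02 and -1.25. Of 9 red cell genes 1, Epor, was above background, and Hbb-b1, Hbb-bt and Hba-a2 were on no array.

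Patterning and kidney development genes were detected in part. Of 39 Hox genes 31 were above background (79.5%, against 57.4% of all genes) and 7 on none. Hoxc6 (3.83 ± 0.13), Hoxb7 (3.56 ± 0.18), Hoxc9 (3.33 ± 0.07), Hoxa7 (3.27 ± 0.06) and Hoxa10 (3.12 ± 0.06) were the brightest, and the Hox genes were steady, with a median SD of 0.18. Of the genes for paralogue group 11, which specify the metanephric kidney, Hoxa11 had -0.28 ± 0.35 and Hoxc11 -2.74 ± 0.33, while Hoxd11 was not above background on any array. The group 13 genes Hoxa13, Hoxb13 and Hoxd13 of the most posterior body were not detected either. Of 31 genes of nephron development 26 were above background (83.9%, against 57.4% of all genes). Eya1, a phosphatase and co-activator of the early kidney (5.32 ± 0.17), Jag1, a Notch ligand (3.56 ± 0.27), and Wnt4, a signal for nephron formation (2.94 ± 0.46), were bright. Sall1 (-1.27 ± 0.12) and the progenitor factors Osr1 (-0.92 ± 0.62) and Six2 (-3.05 ± 0.76) were dim, and Wnt9b, a signal of the ureteric bud, was on no array.

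Of 38 cell cycle genes 37 were above background (97.4%, against 57.4% of all genes), with a median of 2.95. Mki67, the proliferation antigen, had 2.64, 3.53, 3.29 and 3.24, Top2a, a topoisomerase of dividing cells, 1.87, 2.98, 2.79 and 2.54, Pcna, the polymerase clamp, 4.13, 4.87, 4.64 and 4.42, and Ccnb1, the mitotic cyclin, 1.54, 2.78, 2.35 and 1.75. Culture 1 was lowest in each of these, and for 33 of the 37, against 32.5% of all genes above background. The median deviations were -0.48, 0.45, 0.12 and -0.05. All 20 cell cycle inhibitors and regulators of arrest were above background. Cdkn1a, which encodes p21 (4.55 ± 0.23), arrests the cycle after damage. Cdkn1c, which encodes p57, the inhibitor of resting podocytes, had 1.11, 2.23, 2.10 and 2.34, and Cdkn2a of senescent cells 2.14, 0.96, 0.72 and 1.84. Culture 1 thus held the lowest Cdkn1c and the highest Cdkn2a level.

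The genes of the pathway altered in the mutant mice of the series were all measurable in these controls. All 37 genes of the TSC and mTOR pathway were above background, with a median SD of 0.10. Tsc2 had 3.61, 3.40, 2.95 and 3.71 (second probe -0.85 ± 0.29), Tsc1 0.79 ± 0.08, Rheb, the GTPase they control, 1.96 ± 0.10, Rptor 1.73 ± 0.06 and Mtor -0.89 ± 0.27. Of 73 receptors for hormones and drugs 54 were above background (74.0%, against 57.4% of all genes). Egfr (4.90 ± 0.19), Fgfr1 (4.82 ± 0.15) and Igf1r (3.91 ± 0.10) led, and Nr3c1, the glucocorticoid receptor, had 3.52 ± 0.15. Agtr1a, the angiotensin receptor, had -1.34, -1.05, -1.83 and 0.06, and Insr, the insulin receptor, was near the limit at -3.43 ± 0.17. Nr3c2, the mineralocorticoid receptor, Agtr2, Agt, which encodes angiotensinogen, and Esr1 were not above background on any array.

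Of 23 long non-coding RNAs on the array 20 were above background (87.0%, against 57.4% of all genes). Meg3 (0.86, -0.08, 1.85 and 0.20), Rian (-0.23, -1.27, 0.85 and -1.07) and Mirg (-1.95, -1.95, -0.36 and -2.15), which lie in one imprinted cluster on chromosome 12, were each highest in culture 3. Snhg5, a host of small nucleolar RNAs, was the brightest (2.63 ± 0.21). Of 9 sex-linked genes the Y-linked Eif2s3y (0.61 ± 0.26), Kdm5d (-1.14 ± 0.06), Ddx3y (-1.16 ± 0.16) and Uty (-3.48 ± 0.16) were above background in all cultures and Xist in none in mice labelled as male.

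The 25 genes of highest mean level lay between 7.86 and 8.50, and their SDs between 0.0503 and 0.15. S100a6, a calcium-binding protein of growing cells, was first on every array (8.66, 8.51, 8.39 and 8.44). Tuba1b, Tagln, Ppia, Myl6, Grn, Actb, Anxa2, Acta2, Ftl1, Tpt1, Cox6a1, Ubb and Sparc were among them, as were 8 ribosomal protein genes led by Rps18 (8.36 ± 0.08), with Rpl37rt and Gm5523 besides. The ranks are close, since 18 of the 25 were in the top 25 on every array and none fell under rank 38. Probe A_51_P338803, matched to no gene here, was brighter still (8.74 ± 0.13). All 31 housekeeping genes were above background (median 6.79, with Gapdh at 7.26 ± 0.16), as were 78 of 79 ribosomal protein genes (median 7.11). The exception, Rpl37, passed on 1 array, while the probe of Rpl37rt, a near-identical copy, had 7.87 ± 0.08, so these cannot be separated. Ribosomal protein genes differed little in size between cultures, with median deviations of 0.01, 0.12, -0.11 and 0.00, but in a shared order. Culture 2 was highest for 61 of the 78 and culture 3 lowest for 65, and cultures 2 and 4 were both above 1 and 3 for 38, against 21.1% of all genes above background.

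**Figure D5:**
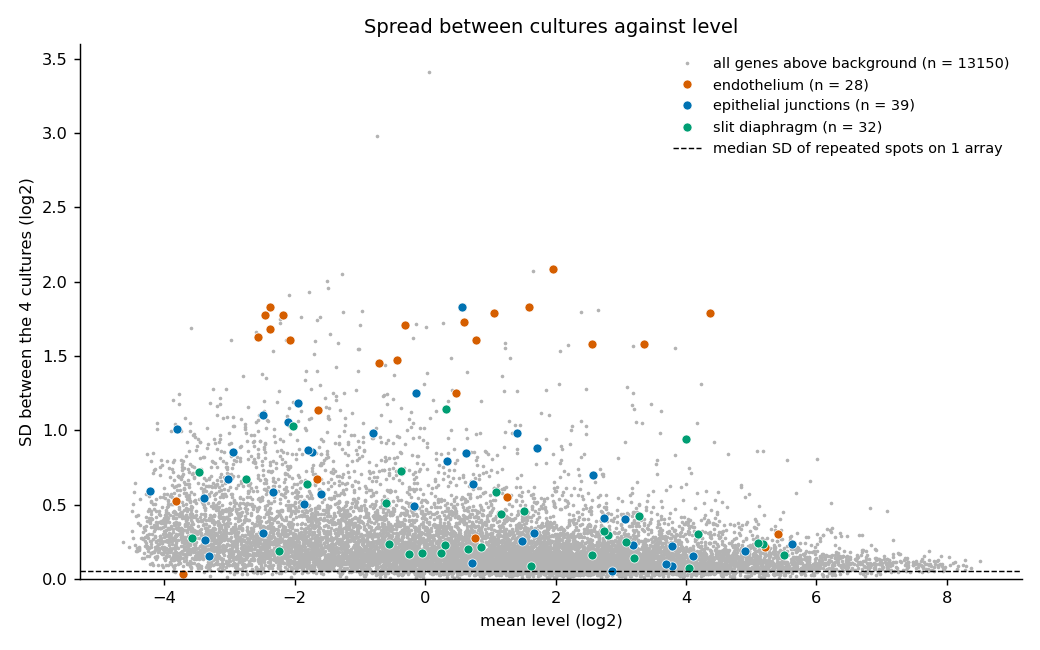
SD between the 4 cultures (vertical axis, log2) against the mean level (horizontal axis, log2) of each of the 13150 genes above background on all 4 arrays (grey), with the endothelial, epithelial junction and slit diaphragm genes coloured. The dashed line is the median SD of repeated spots on 1 array, 0.0535, and most endothelial genes lie over an SD of 1.

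Among genes above background the 15 with the largest SD were Tmem41b, AA465934, Mmrn2, Myct1, Marco, Rasip1, Adcy4, Mall, Hspa12b, Icam2, Sox18, Cdh5, Igfbp2, Firre and Cavin2. Mmrn2, Myct1, Icam2 and Cavin2, genes of endothelial and other vascular cells, had culture 1 highest and culture 3 lowest, as did Rasip1, Adcy4, Mall, Hspa12b, Sox18 and Cdh5. Mmrn2 had 4.09, 2.69, -0.87 and 1.93. In culture 3 Rasip1, Adcy4, Mall, Hspa12b and Sox18 had -4.44, -4.19, -4.52, -4.62 and -4.81. These values lay under the 99th percentile of that array's negative control spots, so the SDs of these genes rest partly on dim signals. Marco, a scavenger receptor of macrophages, had 1.65, -3.10, -1.52 and -2.11. Tmem41b, a membrane protein of the endoplasmic reticulum, had 1.85, -5.06, 1.85 and 1.60, a 120-fold range, and its second probe -0.99, -1.96, -0.81 and -0.99, so both probes placed culture 2 lowest with very different gaps. AA465934, a non-coding RNA, split the cultures into 2 and 2, at -3.34 and -3.26 in cultures 1 and 2 against 1.34 and 2.29 in cultures 3 and 4. Firre, a long non-coding RNA of the X chromosome, had -0.15, -0.11, 0.06 and -3.66. Single probes behind AA465934 and Firre leave these values without a second measurement.

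The median spread fell with level. The median SD was 0.28 for the 660 probes with a mean between -10 and -4 and 0.11 for the 664 with one between 6 and 10. The share with an SD over 1 did not fall steadily. It was 0.45% for those 660 probes and 1.79% for the 5968 between -4 and -2.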

How the data were processed

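RNA from 4 untreated Tsc2flox/flox cultures was read in 1 colour (Cy3) on Agilent SurePrint G3 mouse arrays. The scanner files the authors deposited hold, for every spot, a linear intensity from which Agilent Feature Extraction 10.7.3.1 (submitters' processing notes) had already taken the background. The authors also deposited log2 values from GeneSpring. Their direction and scale matched the intensities here (r = 0.998 of the deviations between cultures), each probe appeared centred over the series, and the method of centring was not stated. The medians of its columns were 0.125, -0.0927, 0.0155 and 0.241. The arrays of the other groups were not used, and a few genes are not reported here.

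Each array was scaled on the log2 scale by subtracting its own 75th percentile, taken over non-control spots (442 to 468 in linear intensity). Spots marked as outliers (between 54 and 134 on an array) were left out, no spot was saturated, and the 10 spots of 300 probes were averaged. Of 56605 probes, 32989 were matched by accession to 22907 genes of RefSeq (GRCm38.p6), 23616 to none, of which 5889 were above background. Names of old probe designs may be out of date. Precision rests on 4 arrays.

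Detection used the software's flag of a signal well above background, held by most spots of a probe. Of 7898 genes with several probes, 1148 had one probe above background on all 4 arrays and another on none. Such a further probe is not given for every gene named. Genes named were the 25 highest levels, the 15 largest SDs above background, the core and podocyte genes of 27 lists, and up to 8 bright and 8 undetected members of the other lists. Other genes named were chosen after their values were seen, as were the comparisons of single cultures. The lists and the choice of samples were made with earlier results of these data known. Lists named 896 genes, 888 of them on the array, and 644 had a promoter in RefSeq's table. Scripts were tested on simulated data. Python 3.11.15, numpy 2.4.6, pandas 2.3.3, R 4.3.3 and limma 3.58.1 (normexp) were used. Alternatives were other detection rules, probe choices, scalings, quantile normalization, normexp, the deposited values and leaving out each array.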

Additional observations from a re-analysis of the deposited data

Results flagged for a closer look

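Of 353 named genes above background, 10 (2.83%) had 1 culture whose gap to the nearest other, as a share of the range, passed Dixon's 95% critical value for 4 samples. Chance gives this in about 1 of 20 groups. In culture 1 these were Crb2 (-2.75, others -1.57 to -1.38), Nck2, an adaptor that links nephrin to actin (3.74, others 4.30 to 4.38), and Nes, which encodes nestin (5.91, others 6.21 to 6.26).

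In culture 2 they were Synpo (3.18, others 3.69 to 3.77), Arhgap24 (2.31, others 2.62 to 2.66), Col4a4 (0.57, others 1.13 to 1.17), Sqstm1, an autophagy receptor (6.03, others 6.43 to 6.47), and Tmem41b (-5.06, others 1.60 to 1.85). In culture 4 they were Firre (-3.66, others -0.15 to 0.06) and Krt10, a keratin (-0.089, others 0.37 to 0.42). In each gene the culture apart was the lowest.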

How the results depend on the processing

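No paired analysis was possible because 1 group was described and no comparison was tested. Scaling to the 75th percentile of probes above background lowered every level by 3.03, which put the median levels of the slit diaphragm, transcription factor, epithelial junction, mesenchymal, endothelial, macrophage and tubule lists at -2.38, -1.08, -4.88, -0.74, -4.70, -5.35 and -8.95. Scaling to the array median raised all levels by 4.56 and gave 5.22, 6.51, 2.71, 6.86, 2.90, 2.24 and -1.35 in the same order. Each array was shifted by its own value, so SDs moved a little, with a median over probes of 0.17 and 0.18 and 268 and 262 probes with an SD over 1. The normexp background correction with an offset of 50 gave medians of 1.85 for transcription factors, -1.72 for macrophage and -2.86 for tubule genes, and 87 probes with an SD over 1 in place of 272. It moved probes above background by a median of 0.03, with an SD of 0.52, and probes above background on no array by 3.88. Counting spread over probes above background on at least 1 array gave 3143 probes with an SD over 1. Quantile normalization moved none of 465 results beyond the spread between cultures. Under normexp 244 of the same results moved beyond it and 221 did not, so many single levels depend on the background correction. Stricter detection lowered the counts. A signal over the 99th percentile of negative controls on all 4 arrays held for 12132 genes in place of 13150. For the same lists in order it held for 30, 18, 32, 41, 20, 23 and 13 members, in place of 32, 20, 39, 43, 28, 25 and 16. Taking the dimmest probe of each gene gave 11155 genes and 24, 16, 28, 42, 24, 17 and 14 members.

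With each array left out in turn, the tubule median lay between -6.08 and -5.86, the endothelial median between -2.10 and -1.33, the genes above background between 13172 and 13505, and the probes with an SD over 1 between 247 and 400. The spread of lists without single arrays was added after seeing the data. Levels near the limit of -5.26 to -4.45 are the least certain, and 4 arrays limit the precision of every SD.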
